A study of Sus scrofa with 180 samples.

Results

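The 7 genes of transforming growth factor beta (TGF-beta) signalling and matrix remodelling described here, TGFB1, TGFB3, BGN, FN1, TNC, THY1 and CD44, were followed in 2 pig skeletal muscles. The members were the array probes with 1 of these 7 symbols in the copy of the study's annotation used here, which names 3481 genes and lacks 400 lines, so further probes of these genes may be missing. This gave 8 of 15198 probes, 2 of them for FN1 and 1 for each other gene. All 8 passed the filter on spot quality, as did 10987 of all probes. The samples were Longissimus (LM, the loin) and Semimembranosus (SM, a ham muscle) of 90 pigs, each sample read on its own 1-colour Agilent array. The pigs, of both sexes and killed at slaughter weight, were of a second-generation intercross between a Pietrain-type sire line and a synthetic sire line with Hampshire, Duroc and Large White founders, and came from half-sib families, so they share parents and the permutation tests over pigs do not allow for that. All were of the wild-type genotype at HAL and RN, the loci behind stress-related and acid meat. No treatment is stated, and the 2 muscles are the only groups compared. The sex, slaughter batch and carcass weight of a pig are missing from the labels used here, and no fit holds them.

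TGF-beta ligands are secreted in a latent form that is stored in the extracellular matrix. Once released they bind type II and type I receptors, and SMAD proteins carry the signal to genes for collagens, fibronectin, proteoglycans and crosslinking enzymes. In skeletal muscle this matrix is the connective tissue around fibres and fibre bundles. It is made mainly by fibroblasts and related stromal cells, and it is known for its part in growth, repair, fibrosis and the toughness of meat. In bulk muscle, fewer cells of a type and less RNA per cell cannot be told apart.

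Each gene was read by the 60-base probes below, of which the first 30 bases are shown 5′ to 3′ as the scanner's output gives them. They are shown because every value reported for a gene is the brightness of that oligonucleotide. The capitals mark the first 15 bases, whose C content was followed because probes rich in C there moved apart from others between the muscles.
TGFB1: AAGTAACACTCACAGgccagagagtaataa
TGFB3: GGGAATCTTGGATCAtttcatcttctggaa
BGN: GGGGCTGCTTCTGAGgtcgatcgctgtctt
FN1 (BM659862.1_2911): ACGTGCCAAAGCTTTactactgtggaaaga
FN1 (CJ005289.1_375): TATCGAGTGCGGGTGacccccaaggagaag
TNC: TAATTATCGGTATTTttgttagcagtgatt
THY1: ATCAAAAGTTCCTAAgagcttccagaactc
CD44: GCCCTCGTTTCAGAAagcaatgcagttttt

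The capitals hold 4, 2, 3, 4, 2, 1, 3 and 5 C in that order, beside a median of 3 and a range of 0 to 12 over all probes kept. None of the 8 therefore reached the 8 or more C by which C-rich probes were defined. G and C make up 35% to 55% of the 60 bases, beside a median of 43.3%. The full probes of TGFB3 and BGN hold AATAAA, the polyadenylation signal that ends most messenger RNAs, which 10.7% of all probes kept also hold. The 2 probes of FN1 are different stretches of the same gene, so they are 2 readings and not 2 genes.

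The median processed signal of an array was between 171 and 304 in LM and between 105 and 252 in SM. The share of probes well above background was between 69.2% and 99.9% in LM and between 63.4% and 83.3% in SM. LM lay on 21 slides and 10 scan days, SM on 14 slides and 5 scan days, and no slide or scan day held both muscles. All samples of a muscle were taken by 1 operator, with a trocar near its surface. The difference between the muscles and those between slides, scan days and operators cannot be told apart. Each of the 10 probes named for the muscle fibre markers ACTA1, CKM, MB, MYH1, MYL1 and TTN was well above background on all 180 arrays.

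All 7 genes were overrepresented in SM. The size ran from 1.61-fold for TGFB1 to 4.88-fold for TNC. The annotation at hand names only probes that the study itself had called on these arrays, and it lists all 8 among those higher in SM, so this direction is a description and no test is given for it. In the limma fit 8 of 8 probes were called higher in SM at an adjusted p of 0.05, beside 47.7% of all probes tested, and nothing is read from that count. Levels are given below as multiples of the median signal of the same array, and mean ± SD on the log2 scale, where 0 is that median. They compare muscles for 1 probe and never 1 probe with another. The reported fit takes each array as independent. Its SE and confidence intervals therefore leave out the pairing by pig and the sharing of slides and scan days.

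The ligands came first in the pathway and differed from each other in size. TGFB1, the ligand most studied in fibrosis, was at 0.362 (lowest), 0.59 (median) and 0.884 (highest) times the array median in the 90 arrays of LM. In the 90 of SM it was at 0.621, 0.921 and 1.72. The groups overlapped, with 58 SM arrays above every LM array and 55 LM arrays below every SM array, and 88 of 90 pigs had the higher value in SM. The means were -0.76 ± 0.30 (SD, n = 90) and -0.08 ± 0.30 (SD, n = 90), a difference of 0.69 (SE 0.044) or 1.61-fold (95% confidence interval 1.51 to 1.71). TGFB3, which shares its receptors with TGFB1, was at 0.102, 0.336 and 0.93 in LM and at 0.433, 1.02 and 2.44 in SM. Of its arrays 54 of SM lay above every LM array and 72 of LM below every SM array. It was higher in SM in 89 of 90 pigs, by 1.63 (SE 0.075) on the log2 scale or 3.1-fold (2.79 to 3.43). The interval of TGFB3 lies wholly above that of TGFB1, but no test compared the 2 differences and the intervals leave out the choice of processing. Over the reported fit and all alternatives the log2 difference lay between 0.58 and 0.80 for TGFB1 and between 1.22 and 1.76 for TGFB3.

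The matrix proteins showed the widest range of differences. BGN encodes biglycan, a small proteoglycan that binds collagen and TGF-beta. It was at 4.94, 11.3 and 40.4 times the array median in 87 arrays of LM and at 20.6, 37.9 and 174 in 90 of SM. The groups overlapped, with 40 SM arrays above every LM array and 83 LM arrays below every SM array, and 86 of 87 pigs were higher in SM. The difference was 1.81 (SE 0.078) on the log2 scale or 3.51-fold (3.15 to 3.91). TNC encodes tenascin-C, a glycoprotein that adult tissue makes mainly at sites of load, repair and tendon attachment. In LM it was at 0.0572, 0.155 and 0.966 in 83 arrays, the other 7 spots being not well above background and left out. In SM it was at 0.337, 0.744 and 3.2 in all 90. The groups overlapped, with 25 SM arrays above every LM array and 79 LM arrays below every SM array, and 82 of 83 pigs were higher in SM. The means were -2.69 ± 0.71 (SD, n = 83) and -0.40 ± 0.62 (SD, n = 90), or 4.88-fold (4.26 to 5.6). Leaving out dim spots removes low values of LM, and with them kept and every other alternative the log2 difference of TNC lay between 1.55 and 2.51.

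Fibronectin, which FN1 encodes, is the adhesive glycoprotein on which other matrix proteins assemble. Its probe BM659862.1_2911 was at 2.5, 7.4 and 14.9 times the array median in 89 arrays of LM and at 6.09, 15.7 and 53.4 in SM. Its probe CJ005289.1_375 was at 0.135, 0.353 and 0.71 in LM and at 0.273, 0.763 and 2.69 in SM. For each probe 50 SM arrays lay above every LM array and 21 LM arrays below every SM array, and 85 of 89 and 87 of 90 pigs were higher in SM. The folds of the 2 probes were 2.31 (2.09 to 2.55) and 2.3 (2.05 to 2.57), so both readings of the gene gave the same size within error.

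The cell surface genes held the most and the least separate of the members, by the number of SM arrays above every LM array. THY1, a surface glycoprotein of fibroblasts and other stromal cells, was at 0.256, 0.703 and 1.28 in 89 arrays of LM and at 0.349, 1.95 and 6.07 in SM. Most of SM was separate, with 84 of 90 arrays above every LM array, while the single lowest SM array fell among the lowest LM arrays, so that 2 LM arrays were below every SM array. THY1 was higher in SM in 88 of 89 pigs, by 2.94-fold (2.68 to 3.22). CD44, the receptor for the matrix sugar hyaluronan, was at 0.166, 0.316 and 0.876 in 87 arrays of LM and at 0.307, 0.566 and 1.36 in SM. Of its arrays 11 of SM lay above every LM array and 41 of LM below every SM array, and 83 of 87 pigs were higher in SM, and the difference was 1.79-fold (1.63 to 1.97). The plot of every array shows these ranges with the muscles of each pig joined.

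**Figure D1:**
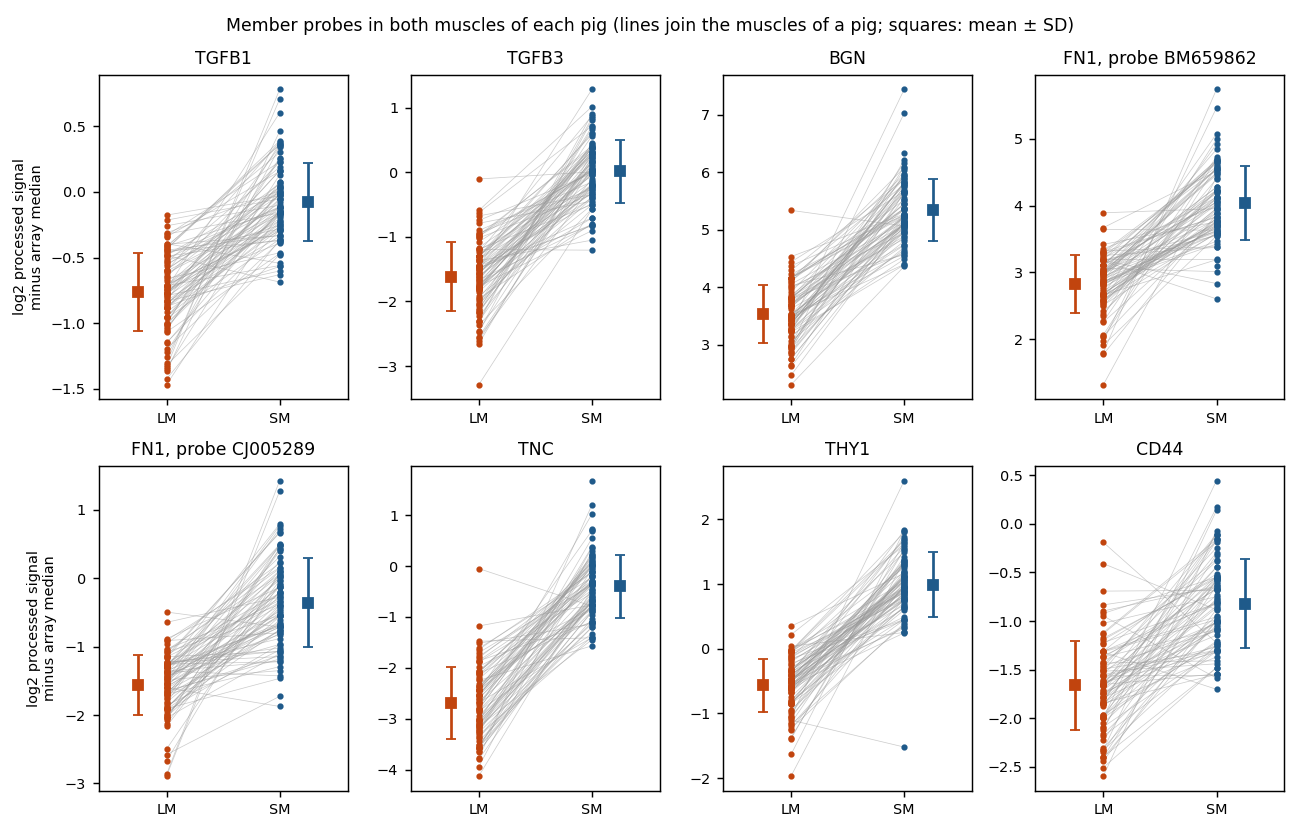
Each panel plots 1 probe, with the log2 processed signal minus the array median on the y axis and the muscle on the x axis. Points are arrays, grey lines join the muscles of 1 pig, and squares with bars are mean ± SD. Nearly all lines go up from LM to SM, from 83 of 87 pigs for CD44 to 89 of 90 for TGFB3, and single arrays such as the lowest SM array of THY1 stand apart.

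The rest of the pathway was not uniformly higher in SM. Lists of ligands and latency genes, receptors, SMAD regulators, induced genes, proteoglycans, collagen enzymes, proteases and adhesion partners held 79 genes, of which 51 had a named probe (56 probes). Of these probes 38 were higher in SM, 17 were higher in LM and 1 was not called, and since naming required a call by the study these are descriptions too. Among all probes the call went to SM for 47.7% and to LM for 35.7%, and the median log2 difference was 0.07. The like background is the 3967 named probes kept, of which 2000 were called higher in SM and 1890 in LM.

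Ligands, their release and their receptors went both ways. Beside TGFB1 and TGFB3, THBS1, a matrix protein that can release latent TGF-beta, was higher in SM by 0.80 on the log2 scale (SE 0.12). The ligand TGFB2, the latency protein LTBP3 and the integrin subunit ITGB8, which also acts in release, were higher in LM, by a difference of -0.32 (SE 0.055), -0.24 (SE 0.085) and -0.71 (SE 0.068) for SM minus LM. Of 7 named receptor genes, TGFBR2, TGFBR3 and ENG were higher in SM, with 0.76 for TGFBR2 (SE 0.038), and TGFBR1, BMPR2 and BAMBI were higher in LM. BAMBI, a pseudoreceptor that blocks signalling, had the largest of these differences at -1.58 (SE 0.046). ACVR1 was not called (-0.11, SE 0.058). All 3 named genes of the SMAD branch were higher in LM: SMAD3 (-0.25, SE 0.054), SMURF1, which marks receptors for breakdown (-0.21, SE 0.068), and the repressor SKIL (-0.43 and -0.81 at its 2 probes).

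Genes that build matrix leaned to SM. Of 6 named genes on the induced list, CTGF, TGFBI, ID1, ID2 and ID3 were higher in SM, by 0.74 to 1.19, and CYR61 was higher in LM (-1.03, SE 0.066). Whether TGF-beta induces each of them in these muscles, the ID genes above all, was not tested. All 5 named small leucine-rich proteoglycans were higher in SM, from ASPN at 0.34 (SE 0.078) to BGN at 1.81. Of 6 collagen enzymes and chaperones, SERPINH1, PLOD1, PLOD3, LOXL1 and LOXL2 were higher in SM and P4HA3 in LM, with 1.34 and 1.24 at the 2 probes of SERPINH1, the collagen chaperone HSP47. Proteases and inhibitors were mixed, with 7 genes higher in SM and 4 in LM. They ran from TIMP1, a metalloproteinase inhibitor, at 1.52 (SE 0.090) to the protease ADAMTS8 at -3.76 (SE 0.23). Among partners of fibronectin, tenascin and CD44, 6 of 7 genes were higher in SM, among them SPP1, ITGA9 and SDC4, and ITGB1 was higher in LM (-0.43, SE 0.036). Of these partners FBLN1 changed sign once the C-rich index, the mean of C-rich probes less that of C-poor ones, entered the fit, from 1.18 to -0.60. With that covariate the proteases MMP7 and MMP15 changed sign too, from 0.40 to -0.21 and from 0.28 to -0.18, as did the receptor ACVR1, from -0.11 to 0.15. Of these MMP7 was no longer called (adjusted p = 0.0955 in limma). The same covariate ended the calls of SMURF1 (0.0788), P4HA3 (0.0624), MMP16 (0.937) and FAP (0.543), all higher in LM without it.

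**Figure D2:**
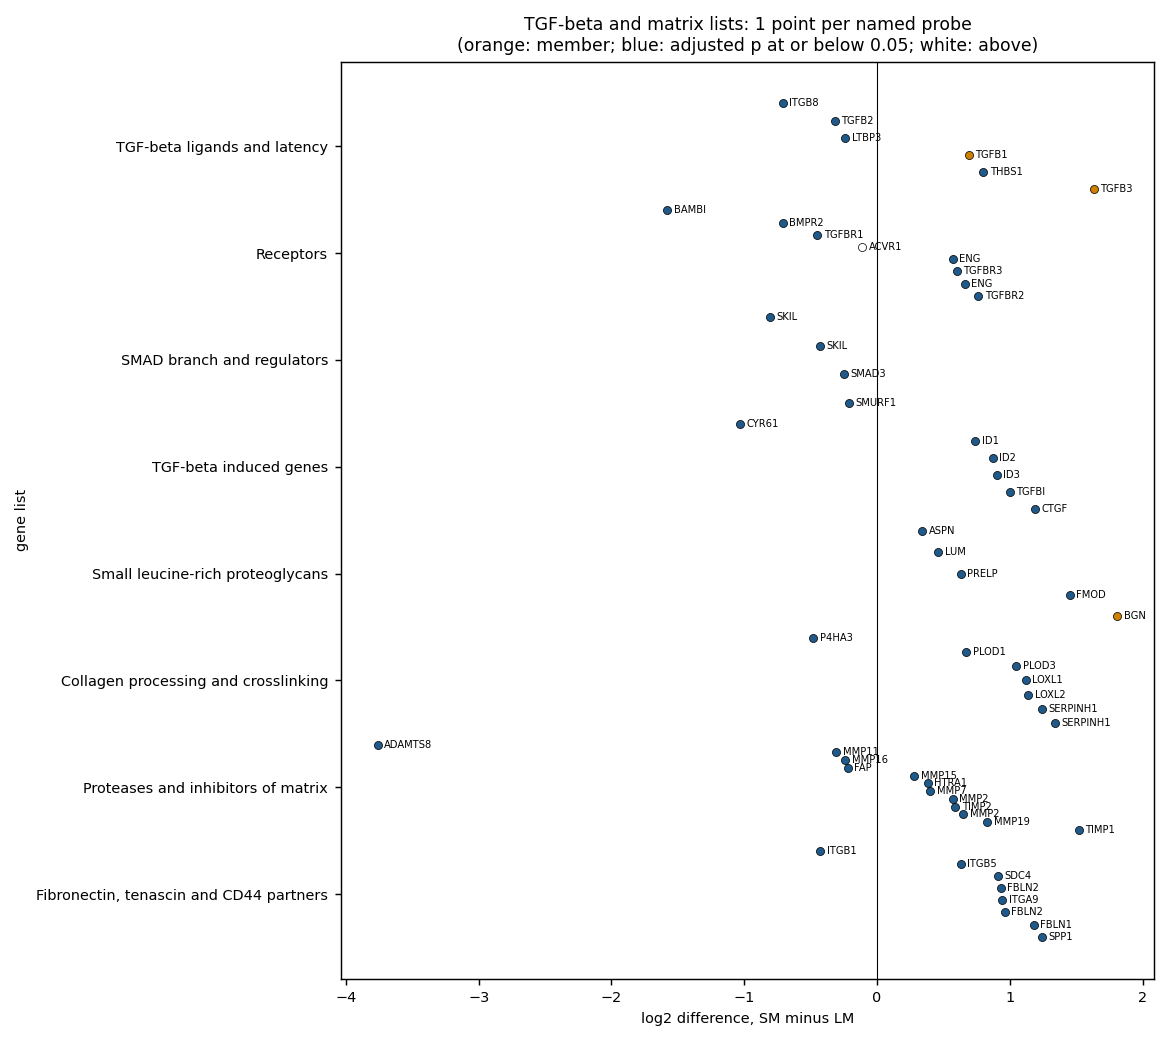
The x axis is the log2 difference, SM minus LM, and each row on the y axis is a gene list with 1 point for each named probe. Orange points are members, blue points have an adjusted p at or below 0.05 and the white point, ACVR1, does not. The 3 named genes of the SMAD branch, of 10 listed, lie on the LM side. The 5 named proteoglycans, of 7 listed, and most named collagen enzymes lie on the SM side.

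Most named markers of other cell types were higher in SM. Of the fibroblast markers 5 of 9 were named (COL1A2, DPT, FBLN1, LUM and VIM), and their mean, centred on each probe, lay between -1.43 and 0.26 in LM and between -0.29 and 1.59 in SM. Means lay between -0.87 and 0.17 in LM and between -0.23 and 1.16 in SM for 3 of 6 endothelial markers, and between -1.08 and 0.18 in LM and between -0.16 and 0.99 in SM for 5 of 7 smooth muscle and pericyte markers. For leukocytes (3 of 6 named) the ranges were -0.77 to 0.79 and -0.39 to 0.96, with CD14 and PTPRC higher in SM and CD68 higher in LM (-0.40), and for adipocytes (2 of 4) -2.61 to 2.62 and -2.07 to 2.98. None of the 3 tendon markers was named. The muscle fibre markers were split, with ACTA1, MYH1 and MB higher in SM (0.33 to 0.83 on the log2 scale) and CKM, MYL1 and TTN higher in LM (-0.30 to -1.38). Their mean, to which TTN gave 4 of 10 probes, had a median of 0.22 in LM and -0.22 in SM. The part of other cell types in the differences of the 7 genes was not tested.

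Within a muscle, pigs high in 1 member were high in the others. The correlation of 1 probe with another did not enter the naming of probes, though the study first dropped the least variable probes and its calls depend on the spread of each probe. Pearson correlations over pigs were positive for all 28 pairs of probes in both muscles, and with 100000 permutations and adjustment over 56 tests 25 pairs passed in LM and 28 in SM. The median r was 0.39 in LM (0.13 to 0.72) and 0.59 in SM (0.38 to 0.95). The top of each range is the 2 probes of FN1 with each other, and between genes the highest r was 0.68 in LM and 0.78 in SM. Over all probes kept, the median r with a member was -0.02 in LM and -0.05 in SM, and the r that 5% of probes exceeded was 0.30 and 0.42. By Spearman's rho 20 pairs passed in LM and 28 in SM.

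Biglycan and tenascin-C formed 1 of the tightest pairs between genes in either muscle. BGN and TNC had r = 0.63 in 80 pigs of LM (rho 0.55, permutation adjusted p = 1.75e-05) and 0.78 in 90 of SM (rho 0.70, permutation adjusted p = 1.75e-05), which rests on the smallest p that the permutations can give. In SM no other probe on the array had a higher r with TNC than BGN. FN1 (BM659862.1_2911) and THY1 were at 0.68 in LM and 0.75 in SM, and BGN and the same FN1 probe at 0.54 and 0.76. With TGFB1 as the partner the values in SM ran from 0.52 for TGFB3 to 0.69 for CD44. In LM they ran from 0.14 for TNC to 0.42 for CD44, and 2 pairs, with TNC (permutation adjusted p = 0.203) and THY1 (0.0585), missed the threshold. TGFB3 tracked BGN most closely, at 0.53 in LM and 0.57 in SM, and the pair TGFB3 and FN1 (CJ005289.1_375) missed the threshold in LM (r = 0.13, permutation adjusted p = 0.219). The 2 probes of FN1, a check of the method rather than a pair of genes, had r = 0.72 in LM and 0.95 in SM.

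**Figure D3:**
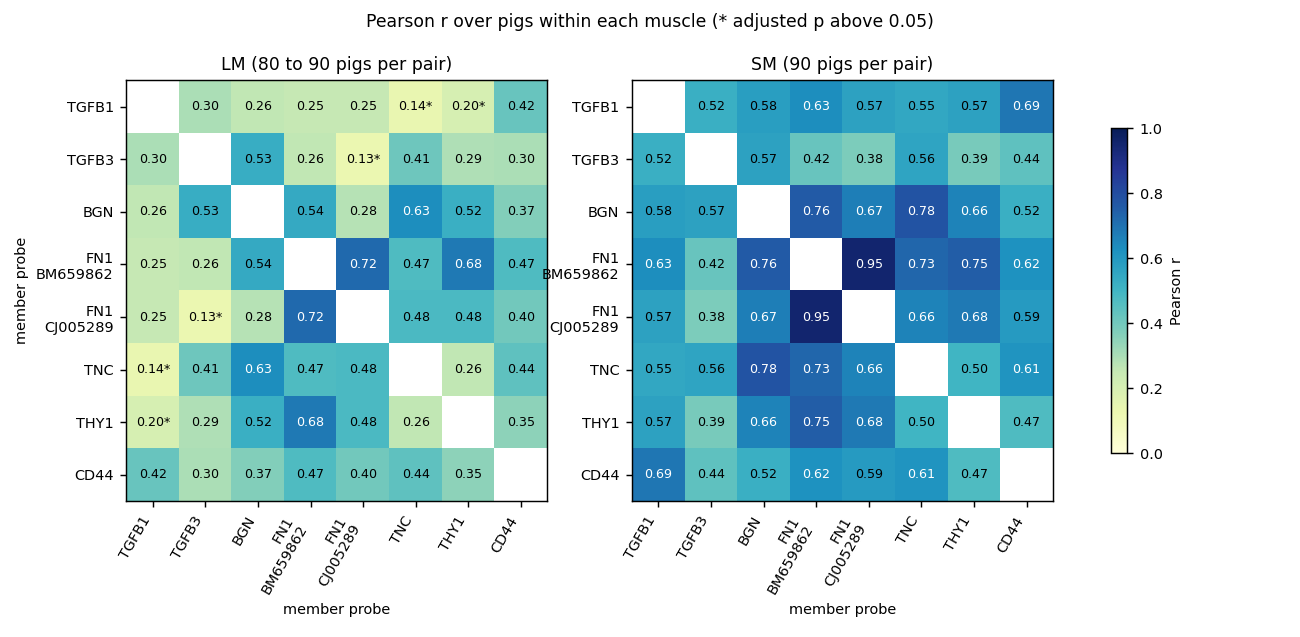
Each cell gives Pearson r over pigs for a pair of member probes, LM on the left and SM on the right, with both axes listing the 8 probes and the colour scale running from 0 to 1. A star marks an adjusted p above 0.05. Every cell is positive, the SM panel is darker (median 0.59 against 0.39), and all 3 stars are in LM.

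The correlations were set against slides and scan days next. As deviations from slide means, 22 pairs passed in LM (median r 0.37) and 28 in SM (median 0.58). Within single scan days with 6 or more arrays, 27 of 28 pairs had the same sign on all 5 days in SM, and 15 of 28 on all 6 days in LM, where r of a day ran from -0.40 to 0.95. With the C-rich index regressed out the median r was 0.39 in LM and 0.59 in SM, and with array brightness 0.40 and 0.59. In the limma F test of slides within a muscle, TGFB3 passed in LM (35.6% of its variance lay between 18 slides, adjusted p = 0.0209) and no other member did, beside 53.6% of all probes in LM. In SM no member passed, beside 15% of all probes, and at an unadjusted p under 0.05 FN1 (CJ005289.1_375) and CD44 did (0.0287 and 0.0463).

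Single pigs stood apart in many members at once. The LM array of pig 728 was the highest of all LM arrays for 5 of the 8 probes, with a median of 2.6 SD above the mean, and the SM array of pig 289 was the highest for 6, with a median of 2.9 SD. The SM array of pig M34 was 5 SD below the mean for THY1. Without pig 728 in LM and pig 289 in SM, 22 pairs passed in LM and 28 in SM. The pairs lost in LM were TGFB3 with FN1 (BM659862.1_2911), BGN with FN1 (CJ005289.1_375), and TNC with THY1. With the 2 pigs farthest from the median of each pair's first gene left out, 18 passed in LM and 28 in SM.

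Levels of the fibroblast markers went with much of this shared variation. Their mean correlated with 7 of 8 members in LM (r 0.22 to 0.73) and with all 8 in SM (r 0.38 to 0.89), with FN1 and THY1 highest. TGFB1 was the exception in LM (r = 0.22, permutation adjusted p = 0.0574). In residuals on that mean, 12 pairs passed in LM with a median r of 0.19, and 21 in SM with a median of 0.30. FN1 (CJ005289.1_375) and THY1 in SM went from 0.68 to 0.06, and BGN and FN1 (BM659862.1_2911) in LM from 0.54 to 0.14. BGN and TNC stayed at 0.50 in LM and 0.66 in SM, TGFB3 and BGN at 0.45 and 0.46, and TGFB1 and CD44 at 0.36 and 0.55, all past the threshold. FBLN1, whose probe follows the C-rich index, is 1 of the markers. Without it 6 pairs passed in LM (median 0.09) and 19 in SM (median 0.31). In residuals on the smooth muscle and pericyte markers 25 pairs passed in LM and 27 in SM. That mean holds the probes of ACTA2, with median signals of 53523 and 318370 in LM. Those of MYH11, RGS5, TAGLN and NOTCH3 were 58.8 to 90.3, and those of the fibre marker ACTA1 162441 and 365938. How far the ACTA2 probes follow smooth muscle and pericytes was not tested, so the 2 lists are not ranked by what they took out. Of the other lists, adipocyte markers correlated with 7 members in LM and 6 in SM, and leukocyte markers with 4 and 7. Endothelial markers correlated negatively with FN1 (BM659862.1_2911) and THY1 in LM (r = -0.26 and -0.35) and positively with 4 members in SM. Muscle fibre markers correlated with none in LM and negatively with both FN1 probes in SM (-0.35 and -0.46). All 96 correlations with marker lists were adjusted together. The share of all probes that correlates as strongly with these means was not computed. Whether the counts of members stand out from that share is therefore not known.

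**Figure D4:**
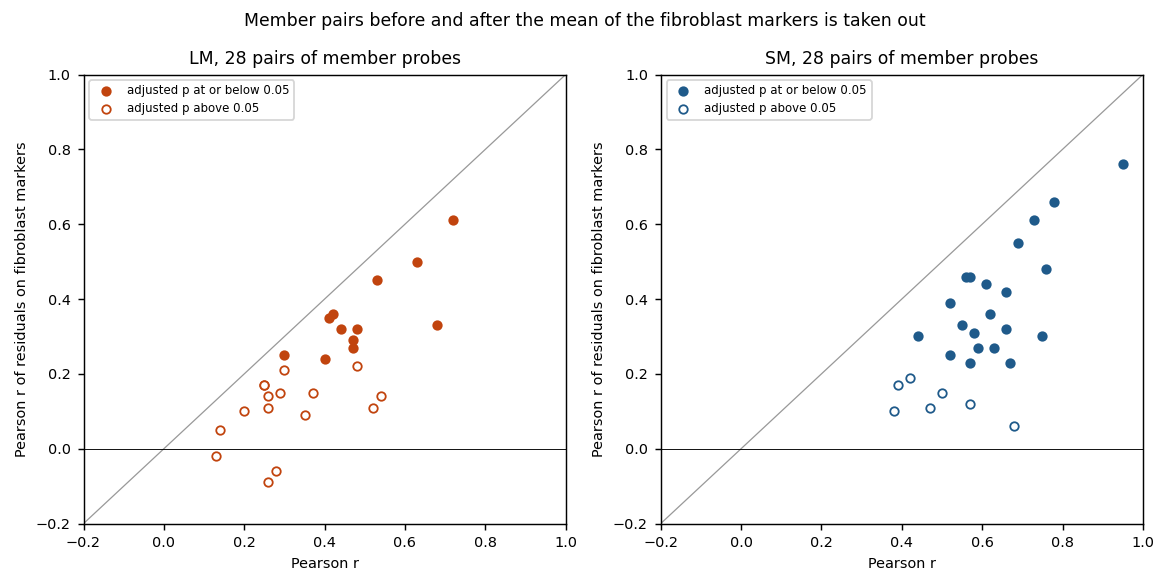
Each point is 1 of the 28 pairs of member probes, with Pearson r on the x axis and r of the residuals on the mean of the fibroblast markers on the y axis, LM on the left and SM on the right. Filled points have an adjusted p at or below 0.05 after the markers are taken out, 12 in LM and 21 in SM. Every point lies below the diagonal, which marks no change.

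Correlations among members were higher in SM for all 28 pairs, and 7 differences passed a test that swapped the muscles within pigs. TGFB1 accounted for 4 of the 7. Its r went from 0.26 in LM to 0.60 in SM with BGN (permutation adjusted p = 0.0294), from 0.25 to 0.62 with FN1 (BM659862.1_2911) (0.0348), from 0.20 to 0.56 with THY1 (0.0182) and from 0.42 to 0.71 with CD44 (0.0348), over pigs with both muscles measured. BGN differed with both probes of FN1, from 0.54 to 0.78 (permutation adjusted p = 0.0466) and from 0.28 to 0.71 (0.0098). The 2 probes of FN1 went from 0.72 to 0.94 (permutation adjusted p = 2.80e-04), so the agreement of 2 readings of 1 gene also differed between the muscles. As deviations from slide means all 7 passed too, with permutation adjusted p from 0.0314 to 0.036. No difference passed in residuals on the fibroblast markers or with normexp background correction. The r with a member that 5% of all probes exceeded was higher in SM too, 0.42 against 0.30 in LM. Whether pairs of other probes differ as much was not tested, nor was the part of the 2 software versions in LM.

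No correlation between the muscles of 1 pig passed the test for these genes. Between LM and SM of the same pig, r was below 0 for 7 of 8 probes and -0.00 for BGN, and none passed in either direction with a permutation test adjusted over 8 probes. At an unadjusted p under 0.05 FN1 (BM659862.1_2911) passed (r = -0.24, permutation p = 0.023, adjusted p = 0.184, 89 pigs), and by Spearman's rho, which lay between -0.10 and 0.06, none did. TGFB1 had r = -0.08 (95% confidence interval -0.29 to 0.13), TNC -0.04 (-0.25 to 0.18) and CD44 -0.03 (-0.24 to 0.18). The highest upper bound was 0.21, for BGN, so r above that lies outside the interval of every member. Over 10775 probes with enough pigs the median r was 0.07, 70.8% were positive, and 35 probes exceeded 0.5, the highest being 0.86. Pig M95 was low in both, with medians of -2.3 SD from the mean in LM and -1.4 SD in SM. Pigs 168 and 625 were low in LM (medians of -2.0 and -1.3 SD from the mean) and above the mean for all 8 probes in SM (1.3 and 2.3 SD). Leaving out pig 289 moved the r of the FN1 probes most, to -0.17 and -0.04. Leaving out any other single pig kept every member's r between -0.27 and 0.04.

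**Figure D5:**
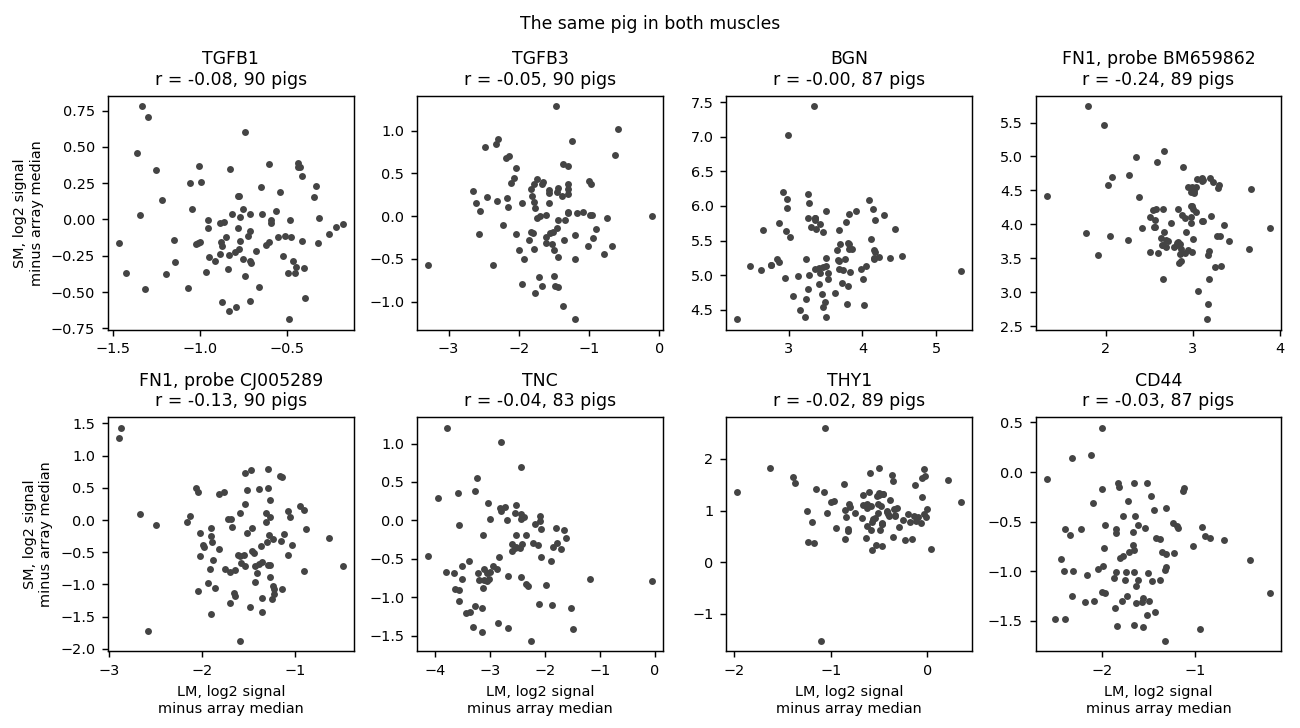
Each panel plots 1 probe, with the level in LM on the x axis and in SM on the y axis, both as log2 processed signal minus the array median, and 1 point per pig. No cloud rises from left to right, with r between -0.24 for FN1 (BM659862.1_2911) and -0.00 for BGN.

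The spread between pigs differed between the muscles for 1 probe, FN1 (CJ005289.1_375), with an SD of 0.44 in LM and 0.65 in SM (permutation adjusted p = 2.40e-04 over 8 probes). The other FN1 probe was at 0.43 and 0.54 (permutation adjusted p = 0.211), so 1 of the 2 readings of the gene passed. TNC had an SD of 0.71 in LM and 0.56 in SM over the 83 pigs with both muscles (permutation adjusted p = 0.211), and TGFB1 and CD44 had ratios of 1.01. The median ratio of LM to SM over all probes was 0.979.

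The ligands were then set against the 53 pathway probes that are no members, with 212 permutation tests adjusted together. TGFB1 correlated positively with 20 probes in LM and 33 in SM and negatively with 1 and 0, and TGFB3 positively with 26 and 28 and negatively with 2 and 0. The lowest r called positive was 0.25 for TGFB1 in both muscles, and 11% of all probes in LM and 11.6% in SM were as high, beside 39.6% and 62.3% of the list probes. For TGFB3 it was 0.25 in LM and 0.24 in SM, and 7.93% and 7.96% of all probes were as high, beside 50.9% and 54.7% of the list probes. These backgrounds are unlike the lists, whose probes were all named and so called by the study. The share among named probes was not computed, so the contrast is not read as particular to the pathway. Of the collagen enzymes 7 of 7 probes passed for both ligands in SM, with r from 0.34 to 0.76 for TGFB1 and from 0.28 to 0.51 for TGFB3. For TGFB1 they were led by LOXL2, a collagen crosslinking enzyme (r = 0.76 in SM, permutation adjusted p = 5.89e-05), over 83 pigs. In LM the spot of LOXL2 was usable in 53 pigs only, with r = 0.29 (permutation adjusted p = 0.0617). PLOD3, which modifies collagen lysines, was at 0.62 in LM and 0.53 in SM, and the 2 probes of SERPINH1 were at 0.52 and 0.61 in LM and 0.61 and 0.62 in SM. Among the receptors TGFBR2, which binds the ligand first, tracked TGFB1 in both muscles (0.43 and 0.52).

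Of the genes on the induced list CTGF, ID2 and ID3 passed with both ligands in both muscles, and no difference between ligands or muscles was tested here. A response of these genes to the ligands was not tested either. CTGF, a classic TGF-beta target, went with TGFB3 at 0.56 in LM and 0.54 in SM and with TGFB1 at 0.38 and 0.37. ID2 was at 0.45 and 0.51 with TGFB3 and at 0.38 and 0.53 with TGFB1. TGFBI, a matrix protein named for its induction, went with TGFB1 at 0.62 in SM and 0.21 in LM, where it did not pass (permutation adjusted p = 0.0865). CYR61 passed with neither ligand (-0.11 to 0.09). The 4 other proteoglycans (ASPN, FMOD, LUM and PRELP) passed with TGFB3 in both muscles, 0.35 to 0.47 in LM and 0.26 to 0.51 in SM. With TGFB1 none of the 4 passed in LM (-0.07 to 0.14) and 3 did in SM. Of the 4 SMAD branch probes, 1 passed with TGFB1 in LM, SMURF1 at 0.25 (permutation adjusted p = 0.0371), and none passed with either ligand in SM. Slides mattered for some values in LM. LTBP3 and TGFB3 had r = -0.34 there but 0.13 within slides, and BAMBI and TGFB3 -0.25 but 0.11.

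For each member the 3 named genes whose pattern was most like it were taken by the lower of r in LM and r in SM, among about 3480 named genes. Collagen genes led for the matrix members. COL1A2 was nearest to both FN1 probes (0.79 in LM and 0.82 in SM for the first, 0.72 and 0.85 for the second), followed by FSTL1 and ABI3BP for the first and by FNDC1 and PI16 for the second. BGN was nearest to COL16A1 (0.74 and 0.76), USP47 and FMOD. TNC was nearest to COL12A1 (0.77 and 0.76), MYO1D and FMOD. THY1 was nearest to CCDC80 (0.83 and 0.86), COL1A2 and PCOLCE, which enhances procollagen processing. CD44 was nearest to VIM, the filament protein of mesenchymal cells (0.73 and 0.72), PRRX2 and PREX1. The ligands had looser neighbours, with SLC1A5 (0.64 and 0.69), SERPINH1 and CSF1 for TGFB1, and MYO1D (0.56 and 0.60), CTGF and RPLP0 for TGFB3. No member was among the 3 nearest of another.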

How the data were processed

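Total RNA was labelled with Cy3 and hybridised to a custom pig muscle array of 15744 spots. The authors deposited the scanner's output, in which the processed signal is an intensity after background subtraction, with no scaling across arrays. A second table the authors deposited is on the natural log scale, and its 6903 probes hold the log of the processed signal minus 1 constant for each array (100% of values within 0.01), with column medians between -0.6141 and -0.3122. It was an alternative.

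Control spots were left out. The log2 of each processed signal was centred on the median of the array over probes with at most 50% failing spots (dim against background, saturated or non-uniform) in each muscle. Failing spots and 7460 values lying over 3 SD from their probe's mean over all arrays became missing, which left 10987 probes. The steps follow those the study describes, except that its removal of the least variable probes by K-means and its terms for sex, batches and weight, with their selection by p, were left out. Dim spots were also handled otherwise. For its probes the authors' second table holds values for 96.2% of the spots called dim here and for 0% of the non-uniform ones. Muscles were compared with limma 3.58.1 in R 4.3.3 (lmFit, eBayes, Benjamini-Hochberg), with the muscle as the only term of the reported fit. Correlations used 100000 two-sided permutations in Python 3.11.15, with 1e-05 as the smallest p. The difference of 2 correlations (Fisher z) and of 2 SDs used 100000 random swaps of the muscles within pigs, and intervals of r used Fisher's z.

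Pig numbers in the labels pair the muscles of an animal. Deviations from the muscle means correlated with a median r of 0.08 for the same pig and -0.009 for other pigs, over 3575 probes without missing values. Probe symbols came from the study's supplementary annotation, used only as a map, of which the copy used lacks 400 lines. Members, lists and the C-rich index (the mean of probes whose first 15 bases hold at least 8 C, less that of probes with at most 2, mean -0.373 in LM and 0.381 in SM) were chosen with earlier results of these data known. Named genes were all members, any gene of the lists, and the 3 nearest named genes of each member over at least 45 pigs. Lists were counted and not tested as sets.

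The tests were tested on simulated data. Precision depends on the spread of a probe between arrays and on how many arrays gave a usable spot. The alternatives comprised 75th percentile centring, quantile scaling, normexp with an offset of 50, failing spots kept, no removal of outlying values, no filter on dim probes, the deposited table, the pig as a replicate block, slide or scan day as a random block, the C-rich index as a covariate, and for correlations deviations from slide or scan day means, residuals on the index or brightness, and the 2 farthest pigs left out. Those on marker residuals, the farthest pig of each muscle and all for differences of correlations were added after the data were seen.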

Additional observations from a re-analysis of the deposited data

Results flagged for a closer look

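Correlations of 7 pairs of member probes differed between the muscles by a test of the difference itself, each higher in SM. In Fisher z, LM minus SM, the difference was -0.43 for TGFB1 and BGN, -0.47 for TGFB1 and FN1 (BM659862.1_2911), -0.43 for TGFB1 and THY1, and -0.44 for TGFB1 and CD44. It was -0.45 and -0.59 for BGN with the probes BM659862.1_2911 and CJ005289.1_375 of FN1, and -0.88 for the 2 probes of FN1 with each other. Of 12 alternatives, between 7 and 9 kept each difference past the threshold.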

How the results depend on the processing

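All 8 members were called higher in SM under each of 12 alternatives. They were named through the study's own call of that direction on these arrays, so nothing is read from this count. In the reported fit 47.7% of all probes were called higher in SM. With the pig as a replicate block 8 members were called and, of 84 pathway and marker probes, 59 were higher in SM and 24 in LM, with 0 calls changed. With the C-rich index 56 and 22 were called, and with the index and the replicate block 54 and 20, where LTBP3, MMP15, PTPRC and SPP1 lost the call they had with the index alone. Over all alternatives the lists held 54 to 59 and 20 to 25. Pairs called in LM were 18 to 26 under alternatives other than residuals on the fibroblast markers, which gave 12, or 6 without FBLN1, where 25 passed in the reported fit. Pairs whose correlation differed between the muscles were 7 in the reported fit, 6 to 10 under most alternatives, 0 with normexp, 0 in residuals on the fibroblast markers, 1 without FBLN1 among these and 1 in residuals on the smooth muscle and pericyte markers. Members with slide differences in LM were 1, and 2 with 75th percentile centring. No member passed between the muscles of a pig, and 1 differed in spread, under every alternative run. The cause of these shifts was not tested. In LM, r of TGFB3 and FN1 (CJ005289.1_375) turned to -0.02 with the 2 farthest pigs left out and in residuals on the fibroblast markers (-0.16 without FBLN1). In those residuals r turned to -0.06 for BGN and FN1 (CJ005289.1_375) (-0.20 without FBLN1) and to -0.09 for TNC and THY1 (-0.20 without FBLN1). Only without FBLN1, r turned to -0.02 for TGFB1 and TNC, -0.05 for TGFB3 and FN1 (BM659862.1_2911), -0.03 for BGN and that probe, -0.07 for THY1 and CD44, and in SM -0.06 for FN1 (CJ005289.1_375) and THY1.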
